A study of Mus musculus with 8 samples.

Results

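The genes described here encode the degradative machinery of the lysosome other than the cathepsins: 26 soluble hydrolases and their cofactors, progranulin, 4 membrane proteins, and 10 subunits of the vacuolar proton pump (V-ATPase). They were chosen by symbol, and all 41 were found among the 38026 genes of the deposited table. All 41 also passed the expression filter of at least 1 TPM (transcripts per 1000000) in at least 3 libraries. RNA was sequenced from 8 mouse libraries. Of these, 5 held tumor-associated cells (TAMs), meaning the microglia and macrophages of a tumor, here medulloblastoma of the cerebellum, from mice aged 68, 90, 61, 66 and 62 days for replicates 1 to 5. In the other 3 the cells were normal microglia from the cerebral cortex of mice aged 60 days. All mice were of the C57BL/6 strain. The labels do not give the genotype or tumor model of the tumor-bearing mice, so a treatment or allele that groups may share is not known here. Cells of both groups were taken from papain-digested, myelin-depleted tissue with magnetic beads against CD11b, an integrin subunit that monocytes and granulocytes carry too. Tumor and cortex are different brain regions, so region, tumor and age cannot be told apart. TPM keeps no read depth, and no counting interval is given. Nothing in the labels says whether libraries of a group came from separate mice beyond the different TAM ages, so p-values measure the spread between these libraries.

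Lysosomes break down material that cells take up or recycle. Soluble hydrolases cut lipids, sugar chains, proteins and phosphate esters at an acid pH, which the V-ATPase sets by pumping protons across the membrane. The pump has a membrane sector (V0) that carries protons and a cytosolic sector (V1) that hydrolyses ATP. In the brain, microglia and macrophages clear cell debris and myelin through this route. Inherited loss of single enzymes gives lysosomal storage diseases, many of which affect the brain.

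Summed TPM of these genes was higher in TAMs. Their summed level was 20545, 15292, 21271, 20054 and 20060.4 TPM in TAM replicates 1 to 5, against 14109, 13221 and 12609 TPM in microglia replicates 1 to 3. Every TAM library was above every microglia library, the lowest being TAM replicate 2. The sum made up 1.53% to 2.13% of listed TPM in TAMs and 1.27% to 1.42% in microglia. Psap, Grn, Lgmn, Laptm5 and Lamp1 together held 63.4% to 69.6% of it in TAMs and 64.3% to 66.1% in microglia, and were the 5 highest members per transcript length in both groups, in another order. By mean TPM the order was Psap, Grn, Lgmn, Laptm5 and Lamp1 in TAMs, and Lgmn, Laptm5, Psap, Grn and Lamp1 in microglia. Psap (mean 5318 TPM in TAMs and 2104 TPM in microglia) and Grn (2557 and 974 TPM) carried much of the difference in the sum. Lgmn and Laptm5 had lower means in TAMs. Without Psap and Grn the sums of the groups overlapped. TAM replicate 2 then lay below every microglia library, and the other TAM libraries lay above them. Acp5 was the lowest of the 41 in microglia and ranked 24 in TAMs by mean TPM. TAM replicate 2, at 425 TPM against 44.4 to 92.1 TPM in the other TAM libraries, raised that mean. In bulk RNA, fewer cells of a type and less RNA per cell cannot be told apart.

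On TPM the majority of genes had lower values in TAMs, so a second scale is given as well. On log2(TPM + 1), limma called 21 of the 41 members higher in TAMs and 6 lower at an adjusted p under 0.05, with a median log2 fold change of 0.47. Over all 15262 genes tested, 8.22% were higher and 56.4% lower, with a median of -0.65. On rescaled TPM, in which each library was divided by its median ratio to the geometric mean library, 32 members were higher and 1 lower, with a median of 1.19. On that scale 24.6% of all genes were higher and 25.1% lower, with a median of -0.04. All 21 members higher on TPM were also higher on rescaled TPM. Of the 6 lower on TPM, Ids was lower on both scales, and Arsa, Neu1, Arsb, Laptm5 and Atp6v0b were not called on rescaled TPM. A further 11 members were called higher on rescaled TPM but not on TPM, and Smpd1, Lgmn and Atp6v0a1 were called on neither. In the authors' deposited table, whose DESeq2 p-values were adjusted here over 27039 genes, 33 members were higher and 0 lower, against 17.6% higher and 16.0% lower of all genes. At an unadjusted p under 0.05 the authors' deposited table also had 0 members lower. These deposited values come from the same libraries and are not independent of the TPM. Without microglia replicate 3, 17 members were higher and 3 lower on TPM. That omission also lowered the counts over all genes, from 1254 to 894 higher and from 8610 to 5760 lower. Exons of 12 members overlap those of other genes, and since the strand of the libraries is not given in the sources used here, such reads cannot be told apart. The overlapping gene of highest level was Cap1, which averaged 341 TPM over the TAM libraries and 339 TPM over the microglia libraries, and it shares 3.51% of the exonic bases of Ppt1. Each of the others averaged 19.2 TPM or less in both groups.

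**Figure D1:**
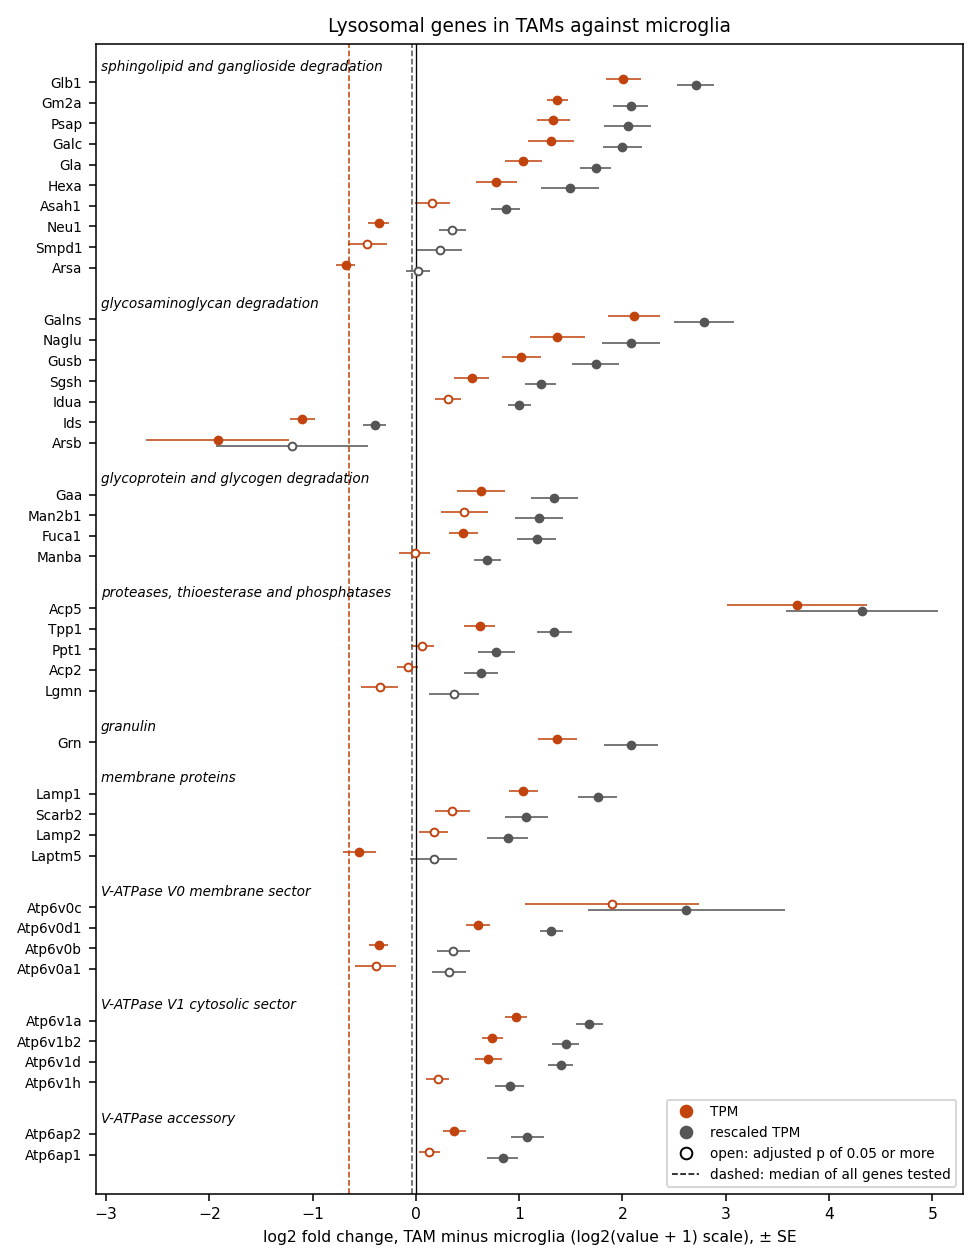
Log2 fold change of each of the 41 genes, TAM minus microglia, on log2(TPM + 1) and on log2(rescaled TPM + 1), grouped by role. Points are limma estimates with bars of 1 SE, filled points have an adjusted p under 0.05, and dashed lines mark the medians of all genes tested (-0.65 and -0.04). Most points lie to the right of their dashed line, Acp5 farthest, while Ids and Arsb lie left of it on both scales.

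Promoters of some of these genes held the E-box CACGTG and its extension GTCACGTG. GTCACGTG is the core of the element known as CLEAR, which the transcription factors TFEB and TFE3 bind in many lysosomal genes. RefSeq windows of 300 bases on GRCm38.p6, from 250 bases before to 50 bases after a gene's start, were matched for 37 members (43 windows), and Asah1, Galns, Atp6v1b2 and Atp6v1h had no entry. Both motifs were searched on both strands, and every GTCACGTG contains a CACGTG. The shorter motif lay in a window of 11 of the 37 members (29.7%), against 8.1% of the 27025 genes with a window. For GTCACGTG the count was 9 members (24.3%), against 2.5% of all genes. Those 9 were Arsa, Atp6v0b, Atp6v0d1, Gla, Glb1, Lamp1, Lgmn, Naglu and Sgsh. By TPM call, GTCACGTG was found in 6 of 19 members higher in TAMs, 2 of 6 lower and 1 of 12 not called. By rescaled call it was found in 6 of 28 members higher and 3 of 8 not called, and not in the 1 member lower. A match describes the letters only and says nothing of binding. The windows shown are those of 4 members with GTCACGTG and the largest fold changes, read along the gene's strand 5′ to 3′, with the motifs in capitals: Glb1 at chr9:114400828-114401127 (plus strand), Naglu at chr11:101069844-101070143 (plus strand), Gla at chrX:134600956-134601255 (minus strand) and Lamp1 at chr8:13158911-13159210 (plus strand).
Glb1: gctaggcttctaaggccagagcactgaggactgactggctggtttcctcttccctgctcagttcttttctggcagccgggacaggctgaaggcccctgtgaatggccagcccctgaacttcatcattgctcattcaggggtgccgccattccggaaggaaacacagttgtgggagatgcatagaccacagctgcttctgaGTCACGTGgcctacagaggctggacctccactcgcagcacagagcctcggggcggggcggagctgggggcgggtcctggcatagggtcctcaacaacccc
Naglu: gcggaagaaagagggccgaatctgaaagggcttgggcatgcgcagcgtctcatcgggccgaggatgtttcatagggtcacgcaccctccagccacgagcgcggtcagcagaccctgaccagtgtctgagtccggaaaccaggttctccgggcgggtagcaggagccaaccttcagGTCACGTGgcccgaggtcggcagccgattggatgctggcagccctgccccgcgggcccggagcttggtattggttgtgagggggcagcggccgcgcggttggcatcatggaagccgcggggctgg
Gla: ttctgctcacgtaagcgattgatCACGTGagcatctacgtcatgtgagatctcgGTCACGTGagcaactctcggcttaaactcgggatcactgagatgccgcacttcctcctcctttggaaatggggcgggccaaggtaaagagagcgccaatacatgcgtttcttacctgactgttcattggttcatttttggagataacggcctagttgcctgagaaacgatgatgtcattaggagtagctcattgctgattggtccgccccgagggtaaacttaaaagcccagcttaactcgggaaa
Lamp1: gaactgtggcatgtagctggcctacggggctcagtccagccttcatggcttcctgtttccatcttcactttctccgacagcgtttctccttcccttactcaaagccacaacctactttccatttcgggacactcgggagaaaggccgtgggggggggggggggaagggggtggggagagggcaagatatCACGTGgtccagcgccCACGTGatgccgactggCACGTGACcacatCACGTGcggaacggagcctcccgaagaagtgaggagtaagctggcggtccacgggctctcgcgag
Lamp1 held 4 copies of CACGTG and Gla held 2, while Glb1 and Naglu had 1 each.

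Genes of sphingolipid and ganglioside breakdown were mostly higher in TAMs: of 10 members 6 were higher and 2 lower on TPM, with a median log2 fold change of 0.91, and 7 were higher on rescaled TPM. The shares over all genes were 8.22% higher and 56.4% lower on TPM, and 24.6% higher on rescaled TPM. The summed level of the 10 members was 6974 ± 890.2 TPM in TAMs (SD, n = 5) and 3130 ± 218 TPM in microglia (SD, n = 3), a ratio of 2.23. Most of this sum was Psap alone, with means of 5318 TPM in TAMs and 2104 TPM in microglia. Glb1 (chromosome 9, 114401076 to 114474376 on mm10) encodes beta-galactosidase, which removes galactose from ganglioside GM1. It stood at 97.0, 93.6, 144, 123 and 144 TPM in TAM replicates 1 to 5, against 31.3, 29.4 and 25.4 TPM in microglia replicates 1 to 3. Every TAM library was above every microglia library, with a log2 fold change of 2.01 (SE 0.17, adjusted p = 8.44e-05), and 2.71 (adjusted p = 4.54e-05) on rescaled TPM. The next enzyme on the ganglioside route is beta-hexosaminidase, whose alpha subunit is Hexa and whose lipid cofactor is the GM2 activator Gm2a. Gm2a (chromosome 11, 55098115 to 55113029) was at 153, 131, 133, 139 and 141 TPM in TAMs, against 59.2, 53.3 and 47.7 TPM in microglia, a log2 fold change of 1.37 (SE 0.10, adjusted p = 3.99e-05). Its TAM libraries lay close together and clear of the microglia. Hexa was at 994, 677, 1200.4, 1101 and 832 TPM in the TAM libraries and 641, 526 and 492 TPM in microglia, with a smaller log2 fold change of 0.78 (SE 0.20, adjusted p = 0.0088). TAM replicate 2, at 677 TPM, came close to microglia replicate 1, at 641 TPM.

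Psap encodes prosaposin, which is cut into the saposins that lift sphingolipids to their enzymes, and it was the most abundant of the 41 genes in TAMs. It was at 5489.6, 4227, 5783, 5079 and 6011 TPM in TAM replicates 1 to 5 and 2258, 2021 and 2033 TPM in microglia replicates 1 to 3 (chromosome 10, 60277627 to 60302597). The lowest TAM library was far above the highest microglia library, and the log2 fold change was 1.33 (SE 0.16, adjusted p = 0.00033), or 2.05 (adjusted p = 0.000367) on rescaled TPM. Galc, galactosylceramidase, which degrades the main galactolipid of myelin, was at 33.5, 57.8, 67.4, 46.7 and 65.2 TPM in the TAM libraries and 20.5, 22.9 and 18.7 TPM in microglia, a log2 fold change of 1.31 (SE 0.22, adjusted p = 0.00152). Gla, alpha-galactosidase A, which acts on globotriaosylceramide, was at 55.2, 47.6, 63.7, 59.1 and 68.8 TPM in the TAM libraries and 21.6, 27.3 and 36.5 TPM in microglia, a log2 fold change of 1.04 (SE 0.18, adjusted p = 0.00157). For both genes the groups did not overlap.

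Other enzymes of the same route were not called higher on TPM. Arsa (chromosome 15, 89472476 to 89477425), arylsulfatase A, which takes the sulfate off the myelin lipid sulfatide, was at 25.6, 24.4, 26.4, 26.1 and 27.3 TPM in the TAM libraries and 41.3, 41.5 and 43.4 TPM in microglia. All TAM libraries were below all microglia libraries on TPM, with a log2 fold change of -0.68 (SE 0.09, adjusted p = 0.00041), but on rescaled TPM the groups overlapped at 0.02 (adjusted p = 0.887). Neu1, the lysosomal sialidase, was at 54.7 to 65.8 TPM in the TAM libraries and 73.2 to 87.0 TPM in microglia. Its log2 fold change was -0.36 (SE 0.10, adjusted p = 0.0124), a call lost without microglia replicate 3 (adjusted p = 0.072) and without the 3 abundant short RNA features Mir6236, Mir6240 and Gm15662 in the TPM total (adjusted p = 0.166), and on rescaled TPM it was 0.35 (adjusted p = 0.0572) with the sign turned, called without TAM replicate 5 (adjusted p = 0.0316). Smpd1, acid sphingomyelinase, was not called, at 16.8 to 31.3 TPM in the TAM libraries and 33.6 to 37.8 TPM in microglia with a log2 fold change of -0.47 (SE 0.19, adjusted p = 0.0529). On TPM it was called lower without TAM replicate 2 (adjusted p = 0.0311) or TAM replicate 4 (adjusted p = 0.0384), and on rescaled TPM its value was 0.23 (adjusted p = 0.407). Asah1, acid ceramidase, was at 195, 189, 193, 177 and 296 TPM in the TAM libraries and 198, 185 and 172 TPM in microglia, with TAM replicate 5 alone above the rest. It was not called on TPM, at 0.16 (SE 0.17, adjusted p = 0.426), whereas rescaled TPM gave a call, at 0.87 (adjusted p = 0.0017). In the authors' deposited table Asah1 (0.959, DESeq2 p adjusted here = 2.58e-06) and Neu1 (0.451, DESeq2 p adjusted here = 0.044) were higher. Arsa and Smpd1 were not called there.

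The 7 members that degrade glycosaminoglycans, the sulfated sugar chains of proteoglycans, went in both directions. Of these 4 were higher and 2 lower on TPM, and 5 were higher and 1 lower on rescaled TPM. Among all genes 8.22% were higher and 56.4% lower on TPM, and 24.6% higher and 25.1% lower on rescaled TPM. The summed level of the 7 members was 852 ± 225 TPM in TAMs (SD, n = 5) and 810 ± 120.4 TPM in microglia (SD, n = 3), and the groups overlapped. Galns (chromosome 8, 122578238 to 122611487), the sulfatase that starts on keratan sulfate, was at 72.2, 33.6, 71.4, 75.2 and 63.7 TPM in TAMs, against 14.0, 13.4 and 12.6 TPM in microglia. TAM replicate 2 was the lowest TAM library and still above the microglia, and the log2 fold change was 2.11 (SE 0.25, adjusted p = 0.000315), the second in size after Acp5 among called members. Naglu (chromosome 11, 101070012 to 101077672) removes N-acetylglucosamine from heparan sulfate, and was at 195, 98.1, 228, 196 and 236 TPM in the TAM libraries and 77.7, 68.1 and 65.0 TPM in microglia. Its log2 fold change was 1.37 (SE 0.27, adjusted p = 0.00279), and TAM replicate 2 again stood well below the other TAM libraries. Gusb, beta-glucuronidase, was at 367, 243, 444, 418 and 379 TPM in the TAM libraries and 189.8, 172 and 173 TPM in microglia, a log2 fold change of 1.02 (SE 0.19, adjusted p = 0.00197) with no overlap.

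Enzymes of heparan and dermatan sulfate breakdown did not all follow these. Ids (chromosome X, 70343069 to 70365084), iduronate sulfatase, was at 19.4, 20.5, 20.6, 24.9 and 24.3 TPM in TAMs, against 43.3, 51.6 and 48.7 TPM in microglia. It was the 1 member lower in TAMs on both scales, with log2 fold changes of -1.10 (SE 0.12, adjusted p = 0.000229) on TPM and -0.40 (adjusted p = 0.0152) on rescaled TPM, and this held without any 1 library. In the authors' deposited table its log2 fold change was -0.293, with a p-value of 0.0587 before adjustment. Idua, alpha-L-iduronidase, which cuts the sugar that iduronate sulfatase has freed of sulfate, was at 29.3 to 38.4 TPM in the TAM libraries and 24.0 to 30.8 TPM in microglia. Its log2 fold change was 0.31 (SE 0.13, adjusted p = 0.058) on TPM, called without TAM replicate 2 (adjusted p = 0.0286), with age as a covariate (adjusted p = 0.0238) or without the 3 short RNA features (adjusted p = 0.00206), and 1.00 (adjusted p = 0.000265) on rescaled TPM. The age covariate rests mainly on TAM replicate 2, at 90 days against 61 to 68 days in the other TAMs, so these settings are not independent. Sgsh, heparan N-sulfatase, was at 15.7, 21.0, 20.8, 14.1 and 22.2 TPM in the TAM libraries and 12.4, 12.6 and 12.1 TPM in microglia, a log2 fold change of 0.54 (SE 0.17, adjusted p = 0.0214). It lost this call without TAM replicate 3 (adjusted p = 0.0518), microglia replicate 2 (adjusted p = 0.0581) or microglia replicate 3 (adjusted p = 0.0703), and with age as a covariate (adjusted p = 0.0618), whereas on rescaled TPM Sgsh was at 1.21 (adjusted p = 0.000508) and called without each library. Arsb (chromosome 13, 93771679 to 93943016), the sulfatase of dermatan and chondroitin sulfate, had the lowest fold change of the 41. It was at 185, 25.0, 192, 265 and 95.6 TPM in TAMs, against 539.6, 506 and 333 TPM in microglia, so the highest TAM library, replicate 4, had 10.6 times the level of the lowest, replicate 2. The log2 fold change was -1.92 (SE 0.69, adjusted p = 0.0362) on TPM and -1.20 (adjusted p = 0.209) on rescaled TPM, where the groups overlapped. On TPM it was no longer called without TAM replicate 5 (adjusted p = 0.0645) or without microglia replicate 1, 2 or 3 (adjusted p = 0.0931, 0.105 and 0.063), with age as a covariate (adjusted p = 0.0923), without the 3 short RNA features (adjusted p = 0.0599), and without the low-value filter (adjusted p = 0.0587).

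**Figure D2:**
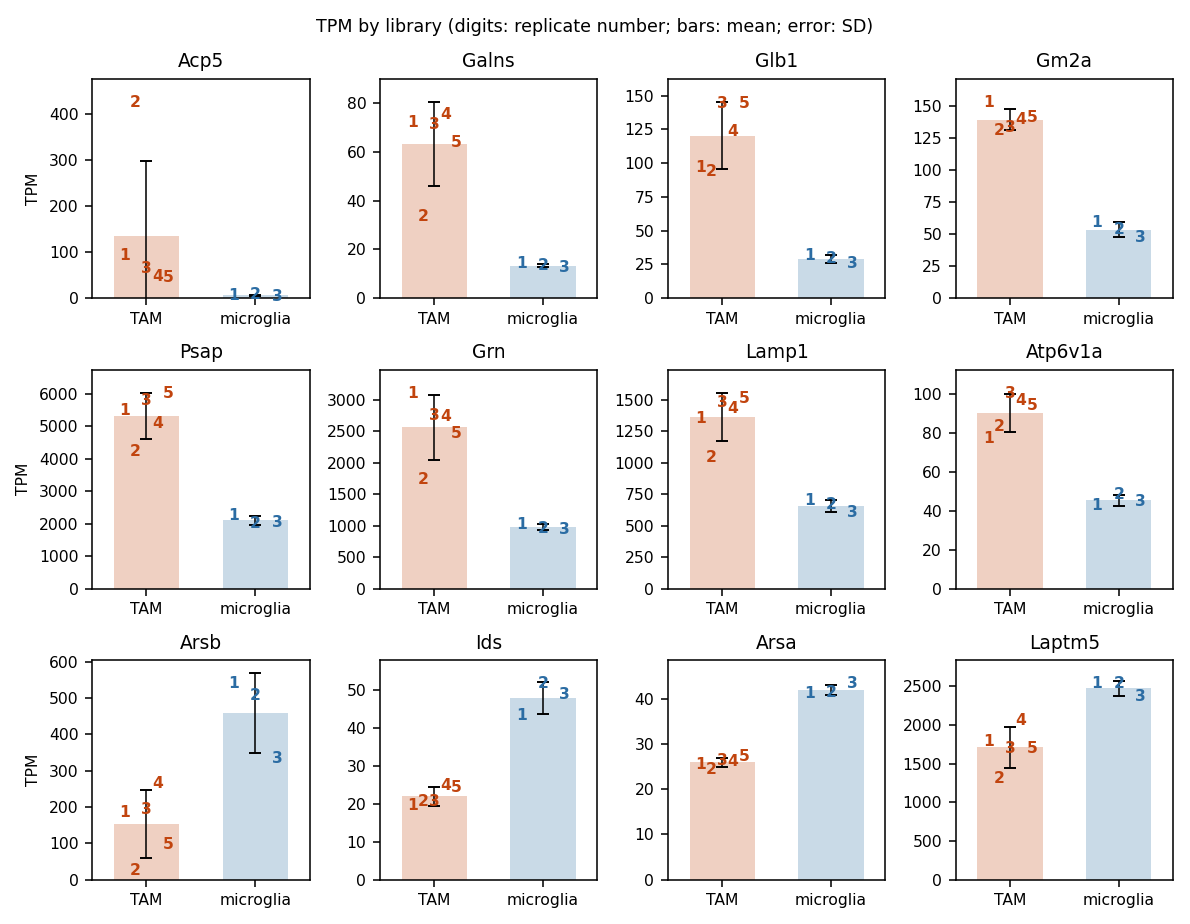
TPM of 12 of the genes in each library, TAMs left and microglia right in each panel, with bars for the mean, error bars of 1 SD and digits for the replicate number. The top 8 panels are higher in TAMs and the bottom 4 lower on TPM, and TAM replicate 2 stands apart for Acp5 (425 TPM) and Galns (33.6 TPM). For Arsb the TAM libraries spread widely, with TAM replicate 2 the lowest (25.0 TPM).

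Of the 4 members in glycoprotein and glycogen breakdown 2 were higher on TPM, with a median log2 fold change of 0.46, and 4 were higher on rescaled TPM, with a median of 1.18. For all genes the shares higher were 8.22% on TPM and 24.6% on rescaled TPM. Gaa, acid alpha-glucosidase, which releases glucose from glycogen, was at 211, 114, 212, 203 and 221 TPM in the TAM libraries and 104, 120.2 and 141 TPM in microglia. TAM replicate 2 fell among the microglia, and the log2 fold change of 0.63 (SE 0.23, adjusted p = 0.0371) was no longer called without any 1 of the 7 libraries other than TAM replicate 2 (adjusted p = 0.0522 to 0.118), nor without the low-value filter (adjusted p = 0.0568). On rescaled TPM Gaa was at 1.34 (adjusted p = 0.00201), called without each library. Fuca1, alpha-L-fucosidase, was at 170.5, 119, 154, 166 and 169 TPM in the TAM libraries and 124, 114 and 99.7 TPM in microglia, with TAM replicate 2 below microglia replicate 1 and a log2 fold change of 0.46 (SE 0.14, adjusted p = 0.0188) that was not called without microglia replicate 2 (adjusted p = 0.0552) or 3 (adjusted p = 0.0883). Man2b1, lysosomal alpha-mannosidase, was at 518, 326, 416, 439 and 701 TPM in the TAM libraries and 389.6, 322 and 300.4 TPM in microglia. The groups overlapped on TPM, at 0.47 (SE 0.23, adjusted p = 0.0982), with a call without TAM replicate 2 (adjusted p = 0.0273), with age as a covariate (adjusted p = 0.0248) or without the 3 short RNA features (adjusted p = 0.0283), and did not overlap on rescaled TPM, at 1.19 (adjusted p = 0.0036). Manba, beta-mannosidase, was at 24.1 to 37.1 TPM in the TAM libraries and 29.0 to 33.3 TPM in microglia, with log2 fold changes of -0.01 (SE 0.15, adjusted p = 0.966) on TPM and 0.69 (adjusted p = 0.003) on rescaled TPM.

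Among the proteases, the thioesterase and the phosphatases, the largest difference of all 41 genes was that of Acp5 (chromosome 9, 22126731 to 22135746). It encodes tartrate-resistant acid phosphatase, a known marker of osteoclasts and of activated macrophages. Acp5 was at 92.1, 425, 64.0, 47.5 and 44.4 TPM in TAM replicates 1 to 5, against 6.76, 6.84 and 4.49 TPM in microglia replicates 1 to 3. All TAM libraries were far above all microglia libraries and TAM replicate 2 far above the other TAM libraries. The log2 fold change was 3.69 (SE 0.68, adjusted p = 0.00204) on TPM and 4.32 (adjusted p = 0.00207) on rescaled TPM, and 3.12 on TPM without TAM replicate 2. Acp2, the lysosomal acid phosphatase found in most tissues, was at 68.8 to 86.2 TPM in the TAM libraries and 76.7 to 89.5 TPM in microglia, with log2 fold changes of -0.08 (SE 0.10, adjusted p = 0.52) on TPM and 0.63 (adjusted p = 0.0131) on rescaled TPM. The rescaled call was lost without microglia replicate 2 (adjusted p = 0.0617) or 3 (adjusted p = 0.0746). Tpp1, tripeptidyl peptidase, was at 220.2, 170.4, 269.97, 245 and 249 TPM in the TAM libraries and 149, 154 and 142 TPM in microglia, a log2 fold change of 0.62 (SE 0.15, adjusted p = 0.00641) with no overlap. Ppt1, which takes palmitate off proteins, was at 139 to 183 TPM in the TAM libraries and 141 to 162 TPM in microglia, at 0.06 (SE 0.11, adjusted p = 0.621) on TPM and 0.78 (adjusted p = 0.00892) on rescaled TPM, the second call being lost without microglia replicate 3 (adjusted p = 0.0552). Lgmn, the asparaginyl endopeptidase legumain, was the most abundant member in microglia, at 2077, 1387, 2044, 2069 and 2283 TPM in the TAM libraries and 2811, 2327 and 2307 TPM in microglia. The TAM libraries were all lower on TPM, but its log2 fold change of -0.35 (SE 0.18, adjusted p = 0.125) was not called, nor was 0.37 (adjusted p = 0.227) on rescaled TPM.

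Grn (chromosome 11, 102430315 to 102437048) encodes progranulin, a secreted protein that is cut into granulins in the lysosome and whose loss causes a storage disease of the brain. It was at 3102, 1731, 2752, 2736 and 2464 TPM in TAMs, against 1027, 956 and 940.4 TPM in microglia. The groups were well apart, with TAM replicate 2 the lowest TAM library, and the log2 fold change was 1.37 (SE 0.19, adjusted p = 0.000596), or 2.08 (adjusted p = 0.000561) on rescaled TPM. Of the 4 membrane proteins 1 was higher and 1 lower on TPM, and 3 were higher on rescaled TPM. In all genes tested 8.22% were higher and 56.4% lower on TPM, and 24.6% higher on rescaled TPM. Lamp1 (chromosome 8, 13159135 to 13175338), an abundant glycoprotein that lines the inner face of the lysosomal membrane, was at 1351, 1039, 1481, 1432 and 1507 TPM in the TAM libraries and 699.6, 666 and 606 TPM in microglia, a log2 fold change of 1.04 (SE 0.14, adjusted p = 0.000587). Its relative Lamp2, which also serves chaperone-mediated autophagy, was at 178 to 262 TPM in the TAM libraries and 181 to 210.3 TPM in microglia, at 0.17 (SE 0.14, adjusted p = 0.302) on TPM and 0.89 (adjusted p = 0.00786) on rescaled TPM. Scarb2, also called LIMP-2, carries glucocerebrosidase to the lysosome. It was at 244, 158, 275, 242 and 243 TPM in the TAM libraries and 183, 187 and 168 TPM in microglia, so that TAM replicate 2 alone lay below the microglia. Its log2 fold change was 0.35 (SE 0.17, adjusted p = 0.0981) on TPM, called without TAM replicate 2 (adjusted p = 0.00265), with age as a covariate (adjusted p = 0.00208) and without the 3 short RNA features (adjusted p = 0.0188), and 1.07 (adjusted p = 0.00368) on rescaled TPM. Laptm5, a lysosomal membrane protein of blood cells and microglia, was at 1787, 1309, 1701, 2056 and 1692 TPM in the TAM libraries and 2532, 2531 and 2364 TPM in microglia, a log2 fold change of -0.55 (SE 0.16, adjusted p = 0.0146) with no overlap. The call was lost without the 3 short RNA features (adjusted p = 0.0956), and on rescaled TPM the groups overlapped at 0.17 (adjusted p = 0.557).

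Of the 4 members in the V1 sector of the proton pump 3 were higher in TAMs on TPM, with a median log2 fold change of 0.72, and 4 on rescaled TPM, with a median of 1.42. The share of all genes higher was 8.22% on TPM and 24.6% on rescaled TPM. The summed level of the 4 V1 members was 329 ± 26.9 TPM in TAMs (SD, n = 5) and 199 ± 13.9 TPM in microglia (SD, n = 3). Atp6v1a (chromosome 16, 44085402 to 44139705), the catalytic subunit, was at 77.1, 83.0, 100.4, 96.6 and 94.1 TPM in the TAM libraries and 42.7, 48.4 and 44.8 TPM in microglia, a log2 fold change of 0.97 (SE 0.11, adjusted p = 0.000261). Atp6v1b2, which alternates with it in the ATPase ring, was at 114, 111, 129.8, 129 and 123 TPM in the TAM libraries and 67.3, 80.8 and 69.1 TPM in microglia, a log2 fold change of 0.74 (SE 0.10, adjusted p = 0.000515). Atp6v1d, part of the central rotor, was at 64.2, 80.5, 88.0, 67.2 and 86.2 TPM in the TAM libraries and 43.9, 49.0 and 48.0 TPM in microglia, a log2 fold change of 0.70 (SE 0.13, adjusted p = 0.00213). No group overlapped for these 3 genes. Atp6v1h, a regulatory subunit, was at 34.7 to 44.7 TPM in the TAM libraries and 31.6 to 36.8 TPM in microglia, with overlap on TPM (0.21 (SE 0.11, adjusted p = 0.112); called without the 3 short RNA features, adjusted p = 0.00637) and none on rescaled TPM (0.91 (adjusted p = 0.00111)). Of the accessory subunits, Atp6ap2, the prorenin receptor, was at 124, 119, 141, 161 and 145 TPM in the TAM libraries and 111, 106 and 100 TPM in microglia. Its log2 fold change was 0.37 (SE 0.11, adjusted p = 0.0202), not called without microglia replicate 2 (adjusted p = 0.0614) or 3 (adjusted p = 0.0863), and 1.08 (adjusted p = 0.00107) on rescaled TPM. Atp6ap1, which takes part in the assembly of the pump, was at 238 to 291 TPM in the TAM libraries and 234 to 264 TPM in microglia, at 0.13 (SE 0.10, adjusted p = 0.264) on TPM, called without the 3 short RNA features (adjusted p = 0.016), and 0.84 (adjusted p = 0.0028) on rescaled TPM.

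In the V0 sector 1 of 4 members was higher and 1 lower on TPM, and 2 were higher on rescaled TPM. All genes tested gave 8.22% higher and 56.4% lower on TPM, and 24.6% higher on rescaled TPM. Atp6v0c was among those higher on rescaled TPM, and its value is uncertain, as described below. Atp6v0d1 (chromosome 8, 105524465 to 105566047), which couples V0 to the rotor of V1, was at 119, 134, 162, 139 and 159 TPM in the TAM libraries and 88.2, 100.2 and 91.9 TPM in microglia, a log2 fold change of 0.60 (SE 0.12, adjusted p = 0.00295) with no overlap. Atp6v0b, a subunit of the proton-carrying ring, was at 379.7, 385, 436, 422 and 370.4 TPM in the TAM libraries and 484, 511 and 541 TPM in microglia. It was lower on TPM, at -0.36 (SE 0.09, adjusted p = 0.01), a call lost without microglia replicate 3 (adjusted p = 0.0557) or without the 3 short RNA features (adjusted p = 0.187). On rescaled TPM it had the opposite sign, at 0.36 (adjusted p = 0.104), and was called higher there without TAM replicate 5 (adjusted p = 0.0118). Atp6v0a1, the largest subunit of V0, was at 62.8 to 103 TPM in the TAM libraries and 88.9 to 128 TPM in microglia, with log2 fold changes of -0.39 (SE 0.20, adjusted p = 0.116) on TPM and 0.32 (adjusted p = 0.13) on rescaled TPM, the second called without TAM replicate 2 (adjusted p = 0.0299).

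Atp6v0c, the main subunit of the proton-carrying ring (chromosome 17, 24163866 to 24169702), had the most uneven values of the pump. It was at 956, 844, 1199, 573 and 70.1 TPM in TAM replicates 1 to 5 and 112, 148 and 163 TPM in microglia replicates 1 to 3. TAM replicate 5 lay below the microglia and the other 4 TAM libraries above them, with a log2 fold change of 1.90 (SE 0.84, adjusted p = 0.0745) that was called without TAM replicate 5 (2.62, adjusted p = 0.000256). On rescaled TPM it was 2.62 (adjusted p = 0.0494), and that call was lost without any 1 library other than TAM replicate 5 (adjusted p = 0.0845 to 0.132). The table also lists Gm15487, a processed pseudogene on chromosome 6 that matches an Atp6v0c transcript over 465 bases at 99.8% identity, so reads of the gene could have been assigned to either. Gm15487 was at 2.02, 1.75, 2.49, 546 and 1094 TPM in the TAM libraries and 499.96, 452 and 504 TPM in microglia. It was low in TAM replicates 1, 2 and 3, close to the level of the gene in TAM replicate 4, and above it in TAM replicate 5 and all microglia libraries. The sum of gene and copy was 958, 846, 1202, 1119 and 1164 TPM in TAMs, against 612, 600.3 and 667 TPM in microglia. In the sum no groups overlapped, and the log2 fold change was 0.74 (SE 0.14, limma adjusted p = 0.00215) on TPM and 1.46 (adjusted p = 0.000393) on rescaled TPM. The sum was chosen after the values were seen. The fold change of Atp6v0c alone is therefore uncertain. Only annotated pseudogenes were searched for copies. Atp6v0c was the 1 member of the 41 with a pseudogene that matched at 95% identity or more over at least 80% of the pseudogene's length.

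**Figure D3:**
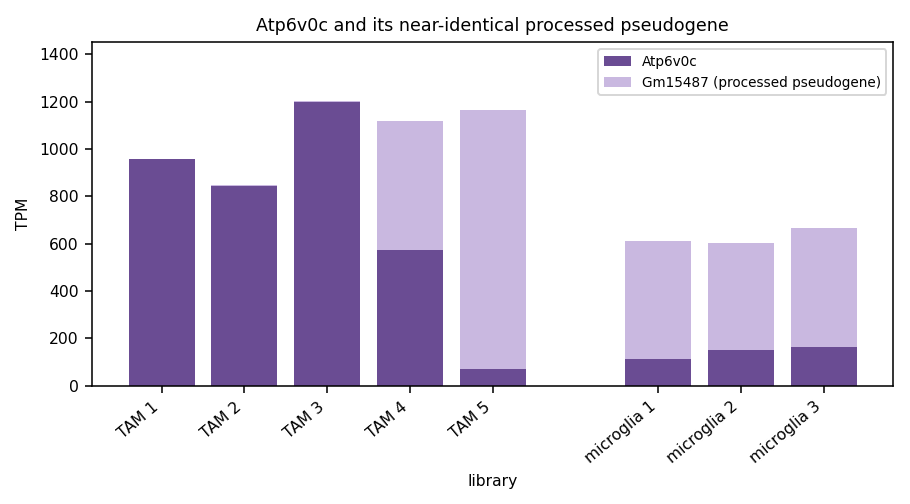
Stacked TPM of Atp6v0c and of its near-identical processed pseudogene Gm15487 in each library, TAMs left and microglia right. The stacks stand between 846 and 1202 TPM in TAMs and between 600.3 and 667 TPM in microglia, while the division between the genes differs from library to library.

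The spread among libraries of a group depended on the scale. The coefficient of variation on TPM had a median of 15.7% over the 41 genes in TAMs and 8.02% in microglia. It was above 30% for 3 genes in TAMs, namely Acp5 (121%), Atp6v0c (59.2%) and Arsb (61.1%), and for 0 genes in microglia, whose highest value was 26.4% for Gla. On rescaled TPM the medians were close, at 17.1% in TAMs and 16.3% in microglia, with 4 genes above 30% in TAMs (Acp5, Arsb, Atp6v0c and Galns) and 1 in microglia (Arsb, 33.5%). Arsa (4.15%) and Gm2a (6.12%) varied least in TAMs. TAM replicate 2, from the mouse aged 90 days, was the lowest TAM library for 28 of the 41 genes on TPM and the highest for 1, Acp5. Its median deviation from the TAM mean on log2(TPM + 1) was -0.29. On rescaled TPM it was the lowest for 19 genes, as was TAM replicate 5. The same counts over all genes were not made, so these counts are not read as a trait of the 41 genes. TAM replicate 2 also had the lowest summed TPM of 7 microglia and macrophage markers, at 2114 (2945 to 3517 in the other 4), and the highest of 6 neutrophil markers, at 532 (71.0 to 191 in the other 4). The part of age, cell makeup or library in these values was not tested. Without TAM replicate 2, 24 members were higher and 7 lower on TPM, and 32 were higher and 1 lower on rescaled TPM. All genes then gave 1303 higher and 8349 lower on TPM, and 3816 higher and 3859 lower on rescaled TPM.

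**Figure D4:**
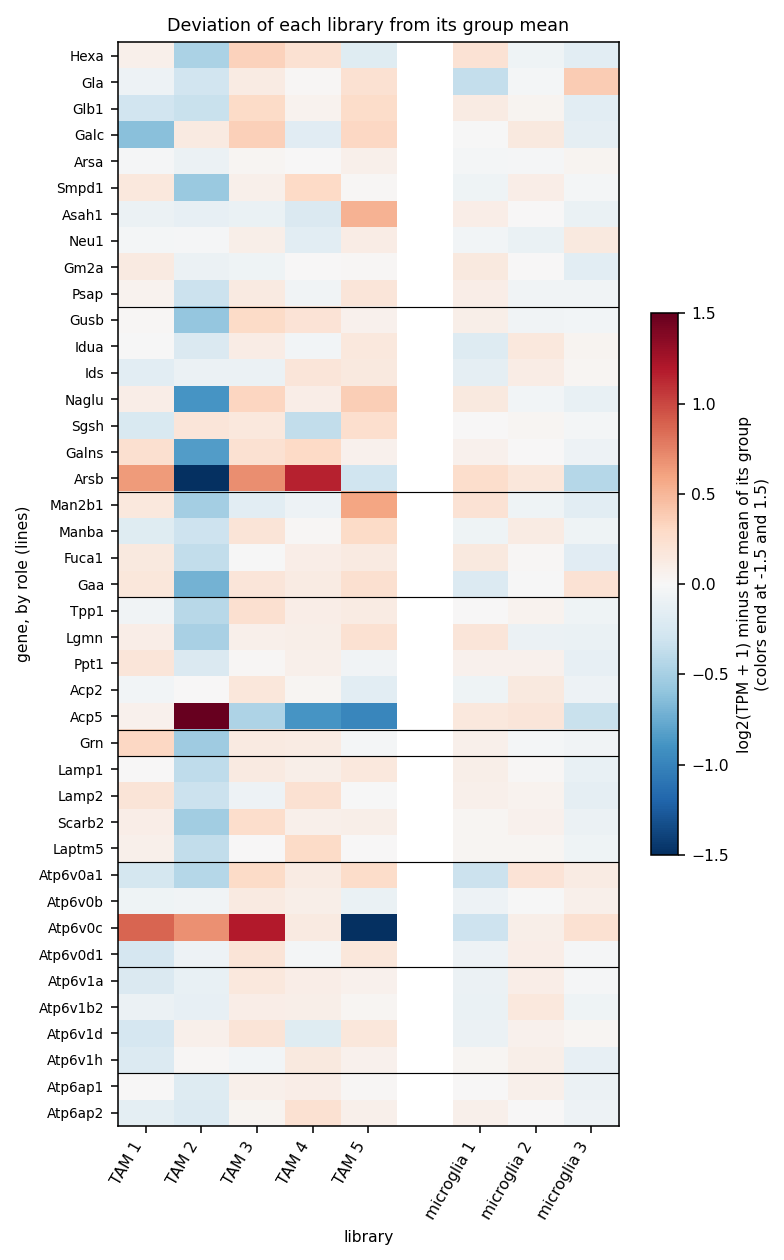
Deviation of each gene in each library from the mean of its own group on log2(TPM + 1), TAM libraries left and microglia libraries right, with genes ordered by role. Blue cells fill much of the column of TAM replicate 2, which was lowest for 28 of 41 genes, while Acp5, Arsb and Atp6v0c show the strongest colors.

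Markers of other cells moved with the groups too. The summed TPM of 6 endothelial markers was 11.8 to 74.6 in TAMs and 520.2 to 1664 in microglia, and that of 6 mural cell markers was 3.15 to 18.7 in TAMs and 286 to 788 in microglia. For 6 astrocyte markers it was 5.35 to 66.2 in TAMs and 85.0 to 481 in microglia, and for 6 oligodendrocyte markers 17.5 to 28.4 in TAMs and 114 to 745 in microglia. Of these 24 genes 23 were lower in TAMs on both scales, and none was at 0 in all TAM libraries. The 6 monocyte-derived cell markers summed to 5292 to 11770.4 in TAMs and 799.7 to 1100.3 in microglia, with 3 higher. Lyz2 made up most of that sum, and the other 5 summed to 167 to 519.7 in TAMs and 115 to 248 in microglia, with overlap. The 6 neutrophil markers summed to 71.0 to 532 in TAMs and 15.6 to 31.7 in microglia, with 3 of 5 tested higher. The 7 microglia and macrophage markers summed to 2114 to 3517 in TAMs and 9070 to 10457 in microglia, with 1 higher and 5 lower, among them P2ry12 at 65.0 to 382 TPM across TAMs and 1972 to 2586 TPM in microglia. The 6 neuron markers summed to 4.51 to 14.7 in TAMs and 6.72 to 30.2 in microglia, and the 6 granule lineage markers to 4.28 to 55.1 in TAMs and 5.10 to 25.2 in microglia, highest in TAM replicate 5. Of the 5 granule lineage markers tested 3 were higher in TAMs on both scales, namely Atoh1, Barhl1 and Neurod1, each under 1 TPM in every microglia library. Zic1 and Pax6 were called on neither scale, and their groups overlapped. Zic1 was at 1.71 to 19.1 TPM in TAMs and 3.72 to 19.6 TPM in microglia. Pax6 was at 0.578 to 6.25 TPM in TAMs and 1.07 to 4.74 TPM in microglia. The part of any of these other cells in the lysosomal values was not tested.

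Other genes of the lysosome, taken from lists of the pathway, showed differences in both directions. Over all genes tested, 8.22% were higher and 56.4% lower on TPM, and 24.6% were higher and 25.1% lower on rescaled TPM. Of 18 other hydrolases 7 were higher and 2 lower on TPM, and 12 were higher on rescaled TPM, with medians of 0.36 and 1.07. Pld3, a lysosomal exonuclease, was at 1006 ± 290.2 TPM on average in TAMs and 158 ± 7.08 TPM in microglia (SD, n = 5 and 3), a log2 fold change of 2.60 (SE 0.28, adjusted p = 0.000213). Scpep1, a serine carboxypeptidase, was also higher, at 1.01 (SE 0.10, adjusted p = 0.000142), and Pla2g15, the lysosomal phospholipase, was lower on TPM at -0.85 (SE 0.09, adjusted p = 0.000246) but not called on rescaled TPM at -0.13 (adjusted p = 0.589). Of 10 other V-ATPase subunits tested 5 were higher and 4 lower on TPM (6 and 2 on rescaled TPM). The largest was Atp6v0d2, the form of the V0 d subunit known from osteoclasts, at 5.26, 45.9, 49.4, 20.9 and 54.5 TPM in TAMs, against 0.186, 0.315 and 0.102 TPM in microglia. It was clearly detected in all TAM libraries and under 1 TPM in all microglia, with a log2 fold change of 4.56 (SE 0.68, adjusted p = 0.000791). Atp6v0e (0.57 (SE 0.08, adjusted p = 0.000501)) and Atp6v1f (0.61 (SE 0.09, adjusted p = 0.000765)) were higher by less. The 4 lower on TPM were Atp6v0a2, Tcirg1, Atp6v0e2 and Atp6v1g2, of which Atp6v0a2 (-0.93 (adjusted p = 0.0246)) and Atp6v1g2 (-1.05 (adjusted p = 0.0145)) were lower on rescaled TPM too, and these 4 were named after their values were seen. Of 19 other membrane proteins and transporters tested, 5 were higher and 8 lower on TPM, with a median of -0.47, and 9 were higher and 2 lower on rescaled TPM, with a median of 0.25. The tetraspanin Cd63 was at 1532 ± 298 TPM on average in TAMs and 338 ± 21.2 TPM in microglia, a log2 fold change of 2.15 (SE 0.17, adjusted p = 6.56e-05), and Cd68, the macrophage relative of the LAMPs, was at 1524 ± 288 TPM on average in TAMs and 535 ± 69.1 TPM in microglia, a log2 fold change of 1.49 (SE 0.18, adjusted p = 0.000295). Laptm4b was lower on both scales, at -1.33 (SE 0.18, adjusted p = 0.000538) and -0.65 (adjusted p = 0.0167).

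Of the 4 MiT/TFE genes, which encode the factors that bind CLEAR elements, 2 were lower on TPM, where 56.4% of all genes were lower, and 2 higher on rescaled TPM, where 24.6% of all genes were higher. Tfeb was at 34.9, 41.2, 39.3, 34.9 and 36.4 TPM in the TAM libraries and 52.5, 59.8 and 68.3 TPM in microglia, and Tfe3 was at 65.6, 45.8, 57.9, 56.5 and 63.1 TPM in the TAM libraries and 113, 109 and 122 TPM in microglia. Both were lower on TPM, Tfeb at -0.67 (SE 0.11, adjusted p = 0.00138) and Tfe3 at -0.98 (SE 0.12, adjusted p = 0.000392), and neither was called on rescaled TPM, at 0.03 (adjusted p = 0.85) and -0.27 (adjusted p = 0.193). The 2 higher on rescaled TPM, named after their values were seen, were Mitf at 0.93 (adjusted p = 0.0163) and Tfec at 1.28 (adjusted p = 0.0155), neither being called on TPM (Mitf 0.26 (SE 0.24, adjusted p = 0.346) and Tfec 0.66 (SE 0.30, adjusted p = 0.081)).

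**Figure D5:**
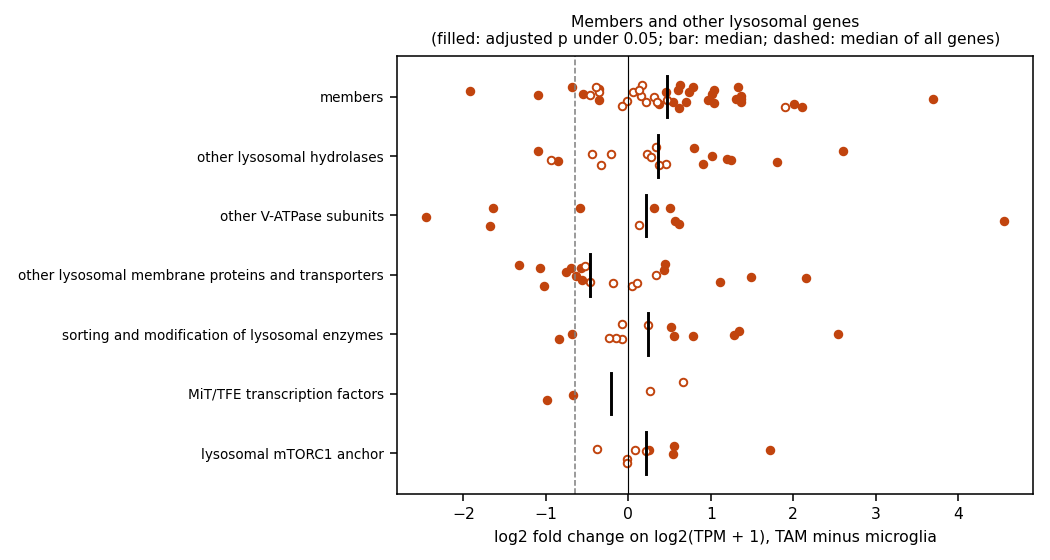
Log2 fold change on log2(TPM + 1), TAM minus microglia, of the 41 genes and of 6 lists of other lysosomal genes, each point being 1 gene, filled where the adjusted p was under 0.05. Black bars are list medians (0.47 for the 41 genes) and the dashed line is the median of all genes tested (-0.65), with Atp6v0d2 (4.56) the point farthest right.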

How the data were processed

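The samples were RNA-seq libraries of CD11b-captured mouse cells, 5 of TAMs and 3 of microglia, grouped by their titles. The authors deposited 1 table of 38026 genes, whose library columns hold TPM, per the file headers. It also holds the authors' log2 fold change, unadjusted p-value and mean signal of their own comparison, per the file headers, with the mean signal not used for any result. A further 3 columns matched no sample and were not used. The submitters' processing notes name mm10, FastQC and DESeq2. For the aligner, quantifier, annotation and strandedness, the entry is: not given in the sources used here. Depth is unknown. Coordinates were taken as deposited, on mm10.

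Genes with at least 1 TPM in 3 libraries (15262) were tested on log2(TPM + 1) with limma 3.58.1 (R 4.3.3), with an intensity trend, all 8 libraries and Benjamini-Hochberg adjustment at 0.05 over all of them. A fold change on this scale understates that of low genes. Positive values mean higher in TAMs. Rescaled TPM was tested the same way. The members, the other lists and the rescaling were chosen with earlier results of these data known. The text accounts for all 41 members and names at most 3 called genes of lowest p per other list, and some V-ATPase, MiT/TFE and granule lineage genes after their values were seen. For copies, GENCODE M21 transcripts of the pseudogenes listed were searched with blastn 2.17.0 against the members' coding transcripts. Coding and other copies were not searched. The sums of copies were added after the data were seen. Alternatives were the scale, 3 short RNA features, the pseudocount, the filter, age, a replicate block and leaving out each library. Age as a covariate rests mainly on TAM replicate 2 (90 days), so it is not independent of leaving out that library.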

Additional observations from a re-analysis of the deposited data

Results flagged for a closer look

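In 6 of the 41 genes 1 TAM library stood far from the other 4 on TPM, by Dixon's test of the gap to the nearest library, which chance alone meets in about 1 group in 20. TAM replicate 2 was the library in 5 of the 6. The share of all genes that meet this test was not counted. Acp5 was highest there, at 425 TPM, against 44.4 to 92.1 TPM in the other TAM libraries. Galns was lowest there, at 33.6 TPM, against 63.7 to 75.2 TPM. Gaa was lowest there, at 114 TPM, against 203 to 221 TPM. Lgmn was lowest there, at 1387 TPM, against 2044 to 2283 TPM, and Scarb2 was lowest there, at 158 TPM, against 242 to 275 TPM. In TAM replicate 5 Asah1 was highest, at 296 TPM, against 177 to 195 TPM in the other TAM libraries. The groups of 3 microglia libraries were too small for this test.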

How the results depend on the processing

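The scale moved the results most. Rescaling took the members higher in TAMs to 32 and those lower to 1, with 3755 of all genes higher and 3837 lower. Without the 3 short RNA features 26 members were higher and 2 lower on TPM, with 1745 of all genes higher and 7768 lower. Rescaling turned the log2 fold change of Arsa to 0.02, Smpd1 to 0.23, Neu1 to 0.35, Manba to 0.69, Lgmn to 0.37, Acp2 to 0.63, Laptm5 to 0.17, Atp6v0a1 to 0.32 and Atp6v0b to 0.36. Without the short RNA features Manba was at 0.18 and Acp2 at 0.11, and with age as a covariate Manba was at 0.16. The cause was not tested. Leaving out each library in turn gave 17 to 24 members higher and 3 to 7 lower on TPM, and 29 to 34 higher and 1 lower on rescaled TPM. Over all genes it gave 894 to 1303 higher and 5581 to 9243 lower on TPM, and 2485 to 3943 higher and 2144 to 4068 lower on rescaled TPM, the lowest counts coming without microglia replicate 2 or 3. In these fits Manba ranged over -0.08 to 0.07, Ppt1 over -0.0005 to 0.12, and Arsa on rescaled TPM over -0.12 to 0.08. Of the 41 members, 27 kept direction and call without each library on TPM and 34 on rescaled TPM. Pseudocounts of 0.1 and 5 gave 21 higher each, with 6 and 7 lower, and no low-value filter gave 20 higher and 5 lower.

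The replicate numbers share no stated source, and same-numbered libraries did not deviate together (correlations 0.15, 0.014 and -0.051 for numbers 1, 2 and 3). A replicate block gave 18 members higher and 5 lower on TPM (1103 and 8613 over all genes), and 33 and 1 on rescaled TPM. On TPM it left Arsb (adjusted p = 0.0608), Fuca1 (0.0753), Gaa (0.127), Tpp1 (0.0551) and Atp6ap2 (0.1) without a call and gave one to Atp6v0c (0.00489), and on rescaled TPM it gave one to Neu1 (0.047). Depth is unknown, so what it limits cannot be stated.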

Other observations

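Genes that sort and modify lysosomal enzymes gave 6 higher and 2 lower of 13 tested on TPM, and 10 were higher on rescaled TPM, with medians of 0.24 and 0.94. Over all genes tested, 8.22% were higher and 56.4% lower on TPM, and 24.6% were higher on rescaled TPM. Sorl1, a sorting receptor of the Golgi and endosomes, was at 28.2, 21.3, 25.1, 17.6 and 28.1 TPM in TAM replicates 1 to 5, against 2.09, 4.22 and 3.76 TPM in microglia replicates 1 to 3. The groups were far apart, with a log2 fold change of 2.54 (SE 0.23, limma adjusted p = 9.82e-05). Gnptab, which builds the mannose phosphate tag that directs hydrolases to the lysosome, was at 29.0, 16.9, 27.2, 27.7 and 40.8 TPM in the TAM libraries and 9.73, 12.5 and 8.73 TPM in the microglia libraries, a log2 fold change of 1.34 (SE 0.25, limma adjusted p = 0.00231). Ggh, gamma-glutamyl hydrolase, is on this list though it is itself a hydrolase, and it was higher as well (1.28, SE 0.15, limma adjusted p = 0.000317).

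Ragulator and the Rag GTPases hold the mTORC1 kinase complex at the lysosome. Of 9 tested genes on a list of these and Flcn, 4 were higher on TPM and 8 on rescaled TPM, against 8.22% and 24.6% of all genes. Flcn, which belongs to neither group, was not called on TPM (limma adjusted p = 0.117) or on rescaled TPM (limma adjusted p = 0.0787). Rragd was at 5.80, 3.51, 7.18, 8.18 and 9.77 TPM in TAMs and 0.892, 1.64 and 1.44 TPM in microglia, without overlap (log2 fold change 1.72, SE 0.29, limma adjusted p = 0.00143). The scaffold genes Lamtor1 (0.54, SE 0.11, limma adjusted p = 0.00293) and Lamtor2 (0.55, SE 0.12, limma adjusted p = 0.00534) differed by less.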
